A study of Homo sapiens with 9 samples.

Results

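The Frizzled genes FZD1 to FZD10 encode the 10 human Frizzled receptors, and their transcripts were followed as embryonic stem cells took on a neural or a mesendodermal fate. All 10 were found by symbol among the 21417 symbols of the table, and for each the transcript row of highest average level stands for the gene. The libraries came from H9, an established human embryonic stem cell line. The group called hESC (3 libraries, day 0) was undifferentiated H9 on Matrigel in mTeSR1, a defined medium for stem cells. The neuroectoderm group (3 libraries, day 5) received 200 nM of NOGGIN, a protein that blocks BMP ligands, and 10 µM of SB431542, which inhibits the receptors of activin and Nodal. The mesendoderm group (3 libraries, day 5) received 5 ng/ml of BMP4 in mTeSR1. All groups derive from the same line, the day 5 groups were not accompanied by undifferentiated cells of day 5, and day and treatment cannot be told apart. Whether replicates were separate cultures is not stated in the labels, and the p-values then rest on a spread between libraries that may be technical only.

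Frizzled proteins are membrane-spanning receptors with an extracellular cysteine-rich domain that binds WNT ligands. With the co-receptors LRP5 and LRP6 they stabilise β-catenin, and with ROR and PTK7 co-receptors they act on planar polarity and cell movement. By sequence the family falls into 4 subfamilies, FZD1 with FZD2 and FZD7, FZD5 with FZD8, FZD4 with FZD9 and FZD10, and FZD3 with FZD6. The membrane ubiquitin ligases ZNRF3 and RNF43 remove Frizzleds from the surface, and R-spondins oppose that removal. WNT signals pattern the neural plate along its axis and are needed for the primitive streak, from which mesoderm and endoderm arise.

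Upstream sequences are shown for 3 receptors whose levels moved in different ways below: FZD1 rose in both lineages, FZD5 fell in both, and FZD4 fell in neuroectoderm and rose in mesendoderm. Each is the 250 bases before the annotated start from RefSeq (GRCh38.p14), 5′ to 3′ on the gene's strand, with the CCAAT box (CCAAT on either strand, here read as ATTGG) in capitals. FZD1 lies at chr7:91264183-91264432 on the plus strand, FZD4 at chr11:86955396-86955645 on the minus strand and FZD5 at chr2:207769907-207770156 on the minus strand.
FZD1: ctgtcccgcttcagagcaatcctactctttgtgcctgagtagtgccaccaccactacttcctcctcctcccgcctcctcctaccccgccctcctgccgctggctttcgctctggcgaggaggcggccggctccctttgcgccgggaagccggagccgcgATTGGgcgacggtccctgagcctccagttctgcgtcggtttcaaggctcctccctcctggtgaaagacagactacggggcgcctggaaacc
FZD4: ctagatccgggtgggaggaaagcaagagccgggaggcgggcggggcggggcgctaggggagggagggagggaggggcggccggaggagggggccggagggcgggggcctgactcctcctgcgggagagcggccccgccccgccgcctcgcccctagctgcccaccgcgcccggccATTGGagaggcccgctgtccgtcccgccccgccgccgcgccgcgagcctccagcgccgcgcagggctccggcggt
FZD5: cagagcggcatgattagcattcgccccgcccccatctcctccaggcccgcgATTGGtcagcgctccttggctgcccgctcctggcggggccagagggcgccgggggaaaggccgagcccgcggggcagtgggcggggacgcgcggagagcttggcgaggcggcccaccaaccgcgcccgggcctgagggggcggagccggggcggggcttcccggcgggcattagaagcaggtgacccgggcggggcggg
The CCAAT box began 91 bases before the start in FZD1, 75 in FZD4 and 199 in FZD5. Promoters of 5 receptors were matched in the RefSeq table (FZD1, FZD4, FZD5, FZD8 and FZD9). A CCAAT box was found in 4 of these 5 and in 32.0% of all 35116 promoter windows of the same length. The GC box GGGCGG, searched on both strands, was found in 5 of 5 and in 42.6% of all windows. The core CTTTGA of the sites bound by TCF and LEF factors, which act at the end of the β-catenin branch, was found in 0 of the 5 windows and in 11.2% of all. These matches describe the letters in the windows only.

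The values are RPKM, reads scaled to transcript length and to library size, so levels of different receptors are compared here per length. Steps between the low values of a library correspond to a denominator of 36.3 to 69.6 M reads, at which a 1 kb transcript with 3 reads would read 0.0431 to 0.0826 RPKM. All 10 receptors passed the filter of a mean of 0.5 RPKM and are among the 14473 genes tested. Marker lists were summed in each library. The 13 pluripotency markers summed to 1137 to 1178 RPKM in hESC, 472.8 to 501.3 in neuroectoderm and 522.7 to 615.0 in mesendoderm. That sum mixes members that moved differently. LIN28A averaged 306.9, 274.7 and 174.3 RPKM in hESC, neuroectoderm and mesendoderm, and SALL4 77.24, 74.95 and 53.87. NANOG averaged 22.03, 0.127 and 12.22 RPKM in the same order, and TDGF1 56.35, 0.0600 and 23.74. The summed RPKM of 14 neuroectoderm markers was 271.0 to 341.6 in neuroectoderm, 46.0 to 48.8 in hESC and 10.7 to 14.6 in mesendoderm, and that of 12 primitive streak markers was 185.8 to 308.9, 3.02 to 3.35 and 11.3 to 20.4 in mesendoderm, hESC and neuroectoderm. The 14 neural crest and placode markers summed to 74.8 to 123.3 RPKM in neuroectoderm, 49.2 to 86.6 in mesendoderm and 14.9 to 16.2 in hESC. Of the 13 tested, 7 were higher and 2 lower in neuroectoderm than in hESC. By limma at an adjusted p under 0.05, 21.9% of all genes tested were higher and 22.3% lower in this comparison. PAX3, a gene of dorsal neural tube and crest, was among the higher, at 0.0633 RPKM in hESC and 68.1 in neuroectoderm. At 0.120 RPKM in mesendoderm, it passed the filter only through neuroectoderm. MSX1, also higher, was at 0.0833 and 25.9 RPKM in hESC and neuroectoderm. SOX10, which defines migrating crest, averaged 1.17 and 0.917 RPKM in these groups, and the part of crest markers in the neuroectoderm results was not tested. The 9 definitive endoderm markers summed to 48.6 to 76.1 RPKM in mesendoderm and 5.14 to 7.94 in hESC. CER1 alone averaged 59.2 RPKM in mesendoderm, while SOX17 (0.220 RPKM) and FOXA2 (0.0367 RPKM) were near 0. Of 3 tested 1 was higher and 0 lower in mesendoderm than in hESC. By the same threshold 17% of all genes tested were higher and 18.1% lower in this comparison. Of 16 matched markers of amnion and trophoblast, cell types that BMP4 can also induce, 13 were tested. All 13 were higher in mesendoderm than in hESC, beside the 17% of all genes tested. The 16 summed to 275.0 to 477.5 RPKM there, against 10.7 to 13.6 in hESC and 8.53 to 12.7 in neuroectoderm. Many of the 13 passed the filter only through mesendoderm, such as CDX2 (0.0200, 0.00667 and 13.6 RPKM in hESC, neuroectoderm and mesendoderm). CGA, ELF5 and ITGB6, at 0.0433, 0.247 and 0.950 RPKM in mesendoderm, did not pass it. The count of 13 higher was thus largely set by the filter. None of the 16 was at 0 in all libraries, 4 of them also stand in the lateral mesoderm or the crest list, and their part in the mesendoderm results was not tested. These are bulk samples, in which fewer cells of a type and less RNA per cell cannot be told apart.

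By the sign of a correlation with base composition, 3 libraries stood apart. Across the 14307 tested genes with a GC value, Spearman's rho between a library's deviation from its group mean and transcript GC content was -0.617 in hESC replicate 2, -0.562 in neuroectoderm replicate 1 and -0.289 in mesendoderm replicate 1, and 0.196 to 0.586 in the other 6 libraries. Genes are not independent replicates, and the 3 deviations of a group sum to zero. Frizzled transcripts span much of the GC range, from FZD3 (34.9%) and FZD6 (38.4%) to FZD8 (64.6%), FZD2 (64.9%) and FZD9 (68.4%). In neuroectoderm replicate 1 FZD3 stood at 1.40 times the mean of the other 2 libraries, whereas FZD8 stood at 0.522 and FZD9 at 0.558 times. FZD10 (GC 58.4%) was at 0.439 times in hESC replicate 2, 0.568 times in neuroectoderm replicate 1 and 1.88 times in mesendoderm replicate 1. In mesendoderm replicate 1 FZD5 (49.9%) was at 0.586 times, so the ratios there did not follow the order of GC content. Mesendoderm replicate 2 also differed in FZD5 and FZD10, as given below. Results are therefore also given without these 3 libraries, which leaves 2 libraries in each group.

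**Figure D1:**
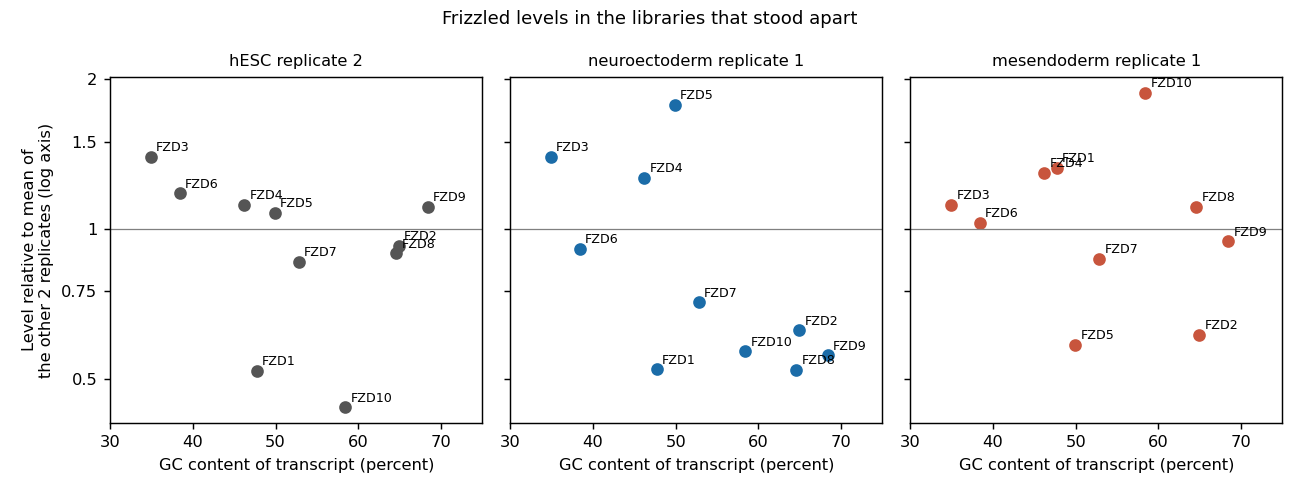
Each point is a receptor, placed by the GC content of its transcript (x, percent) and by its level in the library that stood apart relative to the mean of the other 2 libraries of its group (y, log axis), with a panel per group. In the neuroectoderm panel FZD3, FZD4 and FZD5 lie above 1 and the other 7 receptors below it.

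The composition of the family changed in both lineages. FZD7 made up most of the Frizzled transcripts in hESC, was joined by FZD3 and FZD10 in neuroectoderm, and was lower in mesendoderm. The summed level of the 10 receptors was 98.9, 95.6 and 106.2 RPKM in the 3 hESC libraries, 104.1, 127.2 and 130.7 in neuroectoderm and 54.6, 55.9 and 57.5 in mesendoderm. Mesendoderm libraries all lay below the others, and neuroectoderm replicate 1 lay within the hESC range. The means were 100.2 ± 5.45, 120.7 ± 14.5 and 55.97 ± 1.45 RPKM (SD, n = 3 each), and without the 3 libraries that stood apart 102.5, 128.9 and 56.7.

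Leaving FZD7 out changed the order of the groups. The other 9 receptors summed to 33.3, 37.0 and 35.8 RPKM in hESC, to 63.9, 72.6 and 72.6 in neuroectoderm and to 40.2, 40.4 and 39.9 in mesendoderm. On this sum mesendoderm lay above hESC in every library, so the lower total in mesendoderm was carried by FZD7. In hESC FZD7 held 61.3% to 66.3% of the family sum. Its share was 38.7% to 44.5% in neuroectoderm and 26.4% to 30.6% in mesendoderm, with no overlap between groups. FZD5 was the next receptor in hESC with 13.9% ± 1.26 (SD, n = 3).

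The second place changed with fate. In neuroectoderm FZD3 (20.8% ± 7.05) and FZD10 (14.5% ± 2.81) followed FZD7, and together they rose from 4.80, 6.69 and 5.01 RPKM in hESC to 41.9, 43.0 and 41.5. In mesendoderm FZD6 (12.95% ± 0.523), FZD5 (12.4% ± 5.46) and FZD2 (10.7% ± 2.93) followed, with FZD4, FZD3, FZD10, FZD1 and FZD8 at 5.54% to 8.80% on average. An effective number of receptors, the inverse of the sum of squared shares, was 2.15 to 2.44 in hESC, 3.83 to 3.94 in neuroectoderm and 6.21 to 7.16 in mesendoderm. The number of receptors holding over 5% of the sum was 3 to 4, 4 and 6 to 9. Shares of a sum are not independent of each other, and no test is given for them.

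**Figure D2:**
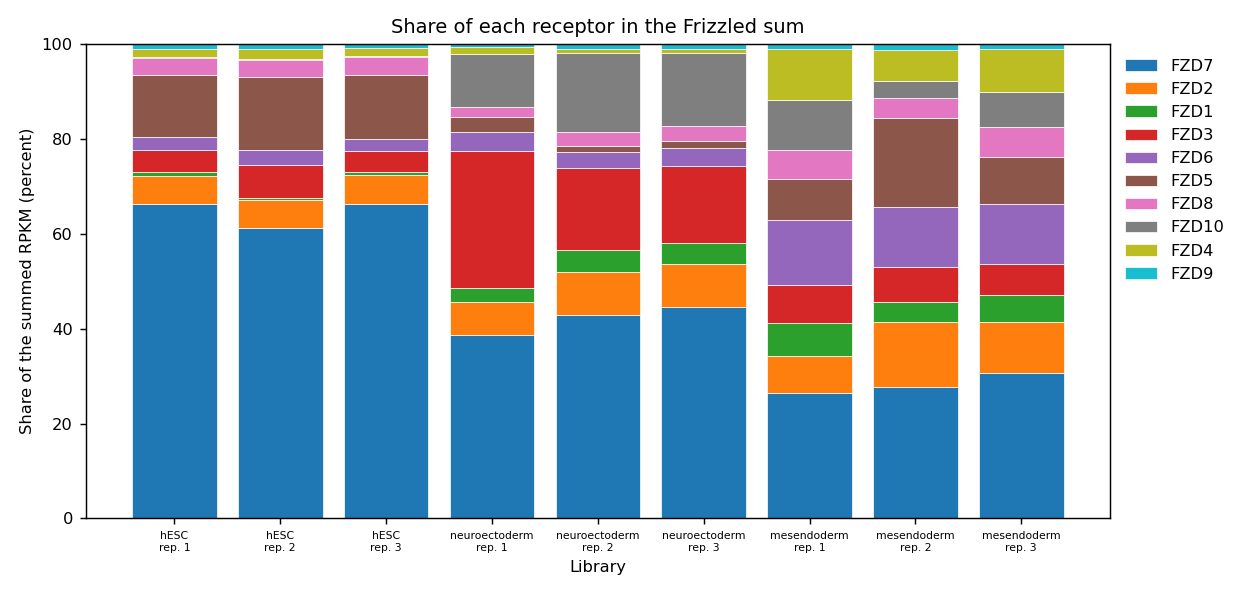
Stacked bars give each receptor's percentage of the summed RPKM (y) in each of the 9 libraries (x), with rep. marking the replicate. FZD7 takes 61.3% to 66.3% in hESC libraries, 38.7% to 44.5% in neuroectoderm and 26.4% to 30.6% in mesendoderm, where the remainder is spread over more receptors.

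The ranking depended on the rule of a transcript per gene for 2 members. FZD3 has 2 and FZD6 has 3 transcripts in the table with nearly equal values, such as 30.1 and 30.1 RPKM for FZD3 in neuroectoderm replicate 1, and such transcripts share reads. Adding them up put FZD6 at 28.98% and FZD7 at 21.3% of the sum in mesendoderm, which turns their order, and put FZD3 at 32.1% and FZD7 at 33.0% in neuroectoderm. With 1 transcript per gene, FZD7 was above every other receptor without overlap in each group. Below it in hESC came FZD5, then FZD2 and FZD3, which overlapped, then FZD8, FZD6 and FZD4 in order without overlap between neighbours. At the lower end were FZD9 and FZD1, which overlapped, and FZD10 last. In neuroectoderm FZD3 was the next without overlap, FZD10 and FZD2 overlapped, FZD1, FZD6, FZD8 and FZD5 each overlapped the next, and FZD4 and FZD9 were lowest and overlapped. In mesendoderm the 8 receptors from FZD6 down to FZD8 each overlapped the next, and FZD9 alone stood below them.

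Of the 10 receptors, 5 were higher and 2 lower in neuroectoderm than in hESC by limma at a Benjamini-Hochberg adjusted p under 0.05 over all 14473 genes. In this comparison 44.2% of all genes were called, 21.9% higher and 22.3% lower. In mesendoderm against hESC 4 receptors were higher and 2 lower, where 35.1% of all genes were called (17% higher, 18.1% lower). In neuroectoderm against mesendoderm 5 were higher and 3 lower, where 48.1% of all genes were called (24% higher, 24.1% lower). With 10 genes these counts, 7, 6 and 8, lie above the background shares, and no test of that excess was made. The receptors' median log2 difference was 0.32, -0.10 and 0.42 in the 3 comparisons, beside -0.024, -0.017 and -0.0057 over all genes tested. The libraries of the groups did not overlap for 8, 8 and 7 of the 10 receptors, beside 51.9%, 54.7% and 57.2% of all genes tested. Both comparisons with hESC share the hESC libraries.

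**Figure D3:**
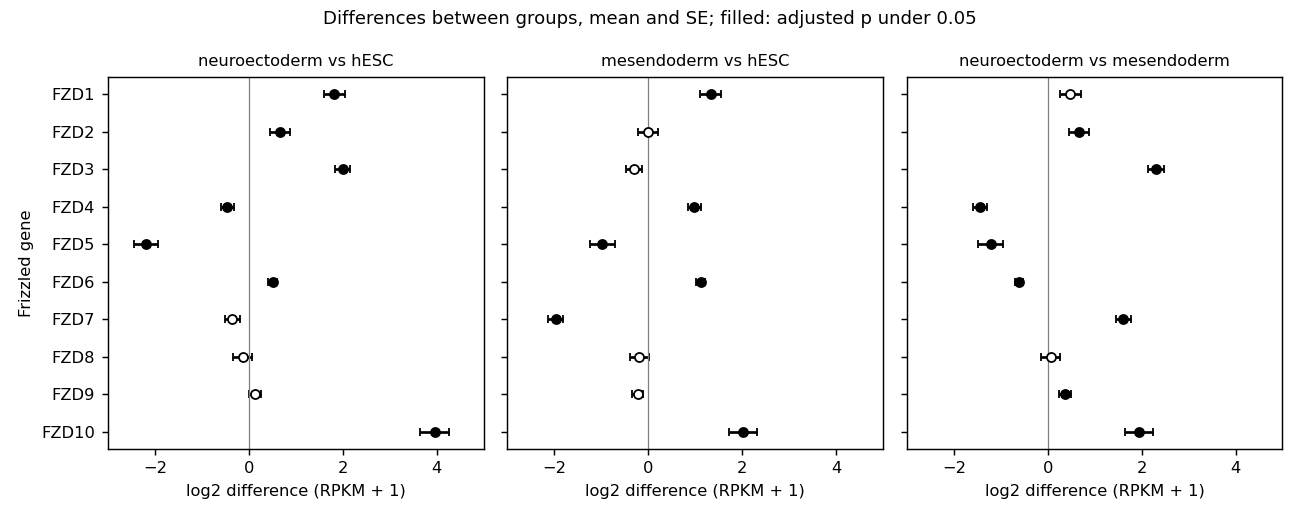
Points are log2 differences of log2(RPKM + 1) with their SE (x) for each receptor (y), in 3 panels for the 3 comparisons, and filled points passed an adjusted p of 0.05. FZD4 is the receptor with filled points on opposite sides of 0 in the panels against hESC, at -0.46 and 0.98.

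FZD7, a receptor known for its abundance in pluripotent cells, carried the largest level in each group. Its RPKM was 65.6, 58.5 and 70.4 in hESC, 40.2, 54.6 and 58.1 in neuroectoderm and 14.4, 15.5 and 17.6 in mesendoderm. All mesendoderm libraries lay far below the rest, and the highest neuroectoderm library lay just under the lowest of hESC. FZD7 fell in mesendoderm by 1.97 ± 0.16 (log2(RPKM + 1), limma adjusted p = 2.39e-05), its hESC mean being 4.10 times the mesendoderm mean. In neuroectoderm the difference from hESC was -0.35 ± 0.16 (adjusted p = 0.107), which did not pass. It passed without the 3 libraries that stood apart, at a smaller difference (-0.27, limma adjusted p = 0.0476), and after GC correction (adjusted p = 0.0143). FZD7 was higher in neuroectoderm than in mesendoderm by 1.61 ± 0.16 (adjusted p = 4.37e-05).

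FZD1 and FZD2 are the nearest relatives of FZD7. FZD1 was low in hESC with 0.87, 0.41 and 0.71 RPKM. Its levels were 3.10, 6.04 and 5.82 RPKM in neuroectoderm and 3.83, 2.43 and 3.34 in mesendoderm. Every differentiated library was above every hESC library, and the lineages overlapped. FZD1 rose by 1.82 ± 0.22 in neuroectoderm (adjusted p = 2.08e-04) and by 1.33 ± 0.22 in mesendoderm (adjusted p = 0.00177). Between the lineages the difference was 0.48 ± 0.22 (adjusted p = 0.106), and it passed without the 3 libraries that stood apart (0.84, adjusted p = 0.00139) and without neuroectoderm replicate 1 alone (adjusted p = 0.00592).

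FZD2, a receptor for WNT5A among other ligands, was at 5.72, 5.62 and 6.40 RPKM in hESC. Neuroectoderm had 7.30, 11.5 and 11.9 RPKM and mesendoderm 4.24, 7.61 and 6.21. Neuroectoderm libraries were above hESC without overlap, while mesendoderm libraries surrounded the hESC values and overlapped neuroectoderm. FZD2 rose by 0.67 ± 0.21 in neuroectoderm (limma adjusted p = 0.0307). Leaving out any hESC library, or neuroectoderm replicate 2 or 3, ended that call (adjusted p = 0.0595 to 0.104). The mesendoderm difference from hESC was -0.0057 (adjusted p = 0.987), and neuroectoderm against mesendoderm gave 0.68 ± 0.21 (adjusted p = 0.0275), a call lost in the fit of the 2 groups alone and without neuroectoderm replicate 2 or 3 or mesendoderm replicate 1 or 3 (adjusted p = 0.0596 to 0.0926).

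FZD5 was the second receptor of hESC, and with FZD8 it forms the subfamily that acts in anterior neural and eye development. FZD5 was at 12.9, 14.7 and 14.2 RPKM in hESC. It was at 3.29, 1.73 and 1.97 RPKM in neuroectoderm and at 4.72, 10.4 and 5.68 in mesendoderm. No groups overlapped, and mesendoderm replicate 2 stood well above the other mesendoderm libraries. FZD5 fell by 2.19 ± 0.26 in neuroectoderm (adjusted p = 1.55e-04), the hESC mean being 5.98 times as high, and by 0.98 ± 0.26 in mesendoderm (adjusted p = 0.0173). The mesendoderm call was lost without hESC replicate 2 or 3 or mesendoderm replicate 1 or 3 (adjusted p = 0.0525 to 0.0671). Neuroectoderm was below mesendoderm, with a difference of -1.22 ± 0.26 (adjusted p = 0.0041).

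FZD8 passed in no comparison. It was at 3.51, 3.38 and 4.04 RPKM in hESC, 2.08, 3.73 and 4.24 in neuroectoderm and 3.32, 2.41 and 3.57 in mesendoderm, with overlap throughout. Its differences were -0.13 ± 0.20 (adjusted p = 0.641), -0.19 ± 0.20 (adjusted p = 0.507) and 0.06 ± 0.20 (adjusted p = 0.818) for neuroectoderm and mesendoderm against hESC and for neuroectoderm against mesendoderm. A microRNA gene, MIR4683, overlaps the FZD8 exon on the same strand. The 2 genes of the subfamily thus differed in what was measured: their sum fell from 17.6 to 5.68 RPKM on average in neuroectoderm, through FZD5.

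**Figure D4:**
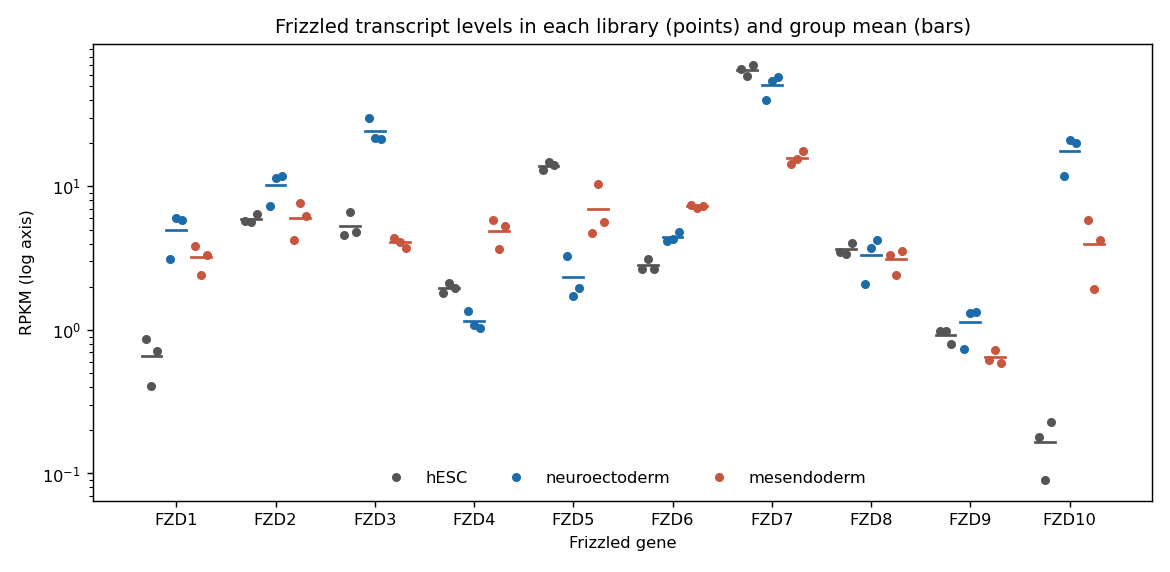
RPKM (y, log axis) of each receptor (x) in each library, coloured by group, with bars for the group mean. FZD10 spans the widest range, from 0.09 to 0.23 RPKM in hESC to 11.8 to 21.2 in neuroectoderm, while the FZD8 groups overlap.

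FZD10 had the largest difference of the 10 receptors in neuroectoderm against hESC, and in mesendoderm its difference was close in size to that of FZD7. FZD10, a receptor expressed in the dorsal neural tube of embryos, was at 0.18, 0.09 and 0.23 RPKM in hESC, or about 13 to 36 reads at the annotated transcript length. It reached 11.8, 21.2 and 20.2 RPKM in neuroectoderm and 5.81, 1.94 and 4.24 in mesendoderm. The 3 groups did not overlap. Neuroectoderm exceeded hESC by 3.96 ± 0.31 (adjusted p = 1.20e-05) and mesendoderm exceeded it by 2.02 ± 0.31 (adjusted p = 9.90e-04). These fold changes are understated on the log2(RPKM + 1) scale, since the ratios of mean RPKM were 106.3 and 24.0. Neuroectoderm was above mesendoderm by 1.95 ± 0.31 (adjusted p = 7.74e-04), and by 2.47 (adjusted p = 1.54e-04) without the 3 libraries that stood apart.

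The neighbouring antisense gene FZD10-AS1 does not overlap FZD10 in the annotation used, and whether the counting used strand is not given in the sources used here. It had 0.10, 0.55 and 0.06 RPKM in hESC, 3.89, 5.49 and 4.01 in neuroectoderm and 0.83, 0.35 and 0.56 in mesendoderm. Like FZD10 it was higher in neuroectoderm than in hESC (2.15 ± 0.18, limma adjusted p = 2.24e-05). In mesendoderm its difference was 0.36 ± 0.18 (adjusted p = 0.162), and the mesendoderm libraries overlapped those of hESC.

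FZD4, the receptor for Norrin in blood vessels of the retina, was the member called in opposite directions. It was at 1.80, 2.12 and 1.97 RPKM in hESC, 1.35, 1.09 and 1.03 in neuroectoderm and 5.81, 3.68 and 5.26 in mesendoderm. The groups formed 3 separate ranges. FZD4 fell by 0.46 ± 0.14 in neuroectoderm (adjusted p = 0.0269) and rose by 0.98 ± 0.14 in mesendoderm (adjusted p = 7.23e-04), and the lineages differed by -1.44 ± 0.14 (adjusted p = 3.92e-05). The fall was lost when small RNA genes were left out and the rest rescaled (adjusted p = 0.182) and without hESC replicate 2 or 3 or neuroectoderm replicate 2 or 3 (adjusted p = 0.0698 to 0.0861). Exons of FZD4 overlap those of PRSS23, a serine protease gene on the opposite strand. PRSS23 averaged 2.01 RPKM in hESC, 17.0 in neuroectoderm and 12.8 in mesendoderm, and reads of the pair cannot be told apart if strand was not used.

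FZD9, the third member of that subfamily, was among the lowest receptors. It had 0.99, 0.99 and 0.80 RPKM in hESC, 0.74, 1.32 and 1.33 in neuroectoderm and 0.62, 0.72 and 0.59 in mesendoderm. Neuroectoderm overlapped hESC, and mesendoderm lay below both groups. Neuroectoderm exceeded mesendoderm by 0.36 ± 0.12 (adjusted p = 0.0394), a call lost in 12 of the 22 alternatives in which it was tested (adjusted p = 0.0524 to 0.129), among them the omission of any library but neuroectoderm replicate 1. Against hESC the differences were 0.13 ± 0.12 (adjusted p = 0.426) in neuroectoderm and -0.23 ± 0.12 (adjusted p = 0.193) in mesendoderm, and neither passed. Without neuroectoderm replicate 1 the first was 0.27 and passed (adjusted p = 0.0413).

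FZD3 and FZD6 form the subfamily known for planar polarity, in axon guidance, neural tube closure and hair orientation. FZD3 was at 4.62, 6.60 and 4.78 RPKM in hESC, 30.1, 21.8 and 21.3 in neuroectoderm and 4.4, 4.1 and 3.74 in mesendoderm. Neuroectoderm stood far above the rest, and mesendoderm just below hESC without overlap. FZD3 rose by 2.0 ± 0.16 in neuroectoderm against hESC (adjusted p = 1.71e-05) and was higher there than in mesendoderm by 2.31 ± 0.16 (adjusted p = 4.82e-06). In mesendoderm against hESC the difference was -0.31 ± 0.16 (adjusted p = 0.184), and it passed after GC correction (adjusted p = 0.0384).

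FZD6 took the opposite order between the lineages. It was at 2.66, 3.13 and 2.66 RPKM in hESC, 4.16, 4.29 and 4.81 in neuroectoderm and 7.40, 7.07 and 7.27 in mesendoderm. The 3 groups were separate and the replicates close. FZD6 rose by 0.51 ± 0.09 in neuroectoderm (adjusted p = 0.0018) and by 1.11 ± 0.09 in mesendoderm (adjusted p = 2.23e-05), and neuroectoderm was below mesendoderm (-0.61 ± 0.09, adjusted p = 5.37e-04). With small RNA genes left out and the rest rescaled the last difference did not pass (adjusted p = 0.0716). Exons of FZD6 overlap those of the antisense gene BAALC-AS1.

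The receptors also differed in which of their calls rested on all libraries. The rises of FZD1, FZD3, FZD6 and FZD10 and the fall of FZD5 in neuroectoderm against hESC passed in all 23 alternative settings. So did the changes of FZD1, FZD4, FZD6, FZD7 and FZD10 in mesendoderm against hESC, and those of FZD3, FZD4, FZD5, FZD7 and FZD10 between the lineages. Mesendoderm replicate 2 differed from the other mesendoderm libraries in FZD5 (10.4 RPKM against 4.72 and 5.68), in FZD10 (1.94 against 5.81 and 4.24) and in FZD4 (3.68 against 5.81 and 5.26). In that library the primitive streak markers summed to 308.9 RPKM (185.8 and 273.1 in the others), the lateral mesoderm markers to 211.7 (391.4 and 330.2) and the amnion and trophoblast markers to 275.0 (477.5 and 399.8). The pluripotency markers summed to 615.0 RPKM in it (522.7 and 546.1), with NANOG at 18.4 (7.68 and 10.6) and TDGF1 at 34.2 (14.1 and 22.9). The part of these markers in the receptor levels was not tested.

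Co-receptors sit beside the Frizzleds at the membrane. Of 13 co-receptor genes tested, 2 were higher and 1 lower in neuroectoderm than in hESC, 3 higher and 6 lower in mesendoderm than in hESC, and 5 higher and 3 lower in neuroectoderm than in mesendoderm. The 3 of 13 called in neuroectoderm against hESC lie below the 44.2% of all genes called there, and the other comparisons had 35.1% and 48.1% of all genes called. The co-receptors' median log2 differences were 0.06, -0.09 and 0.26. LRP6, a co-receptor of the β-catenin branch, averaged 14.3, 16.1 and 10.4 RPKM in hESC, neuroectoderm and mesendoderm, and fell by 0.42 ± 0.11 in mesendoderm (limma adjusted p = 0.0170). That call was lost without hESC replicate 2 or 3 or mesendoderm replicate 1 or 3 (adjusted p = 0.0506 to 0.0589) and with small RNA genes left out (adjusted p = 0.0949). LRP5 averaged 9.73, 7.02 and 14.9 RPKM and did not pass against hESC, although in mesendoderm it did without the 3 libraries that stood apart (0.53, adjusted p = 0.0165). ROR2, the WNT5A co-receptor, rose from 1.21 ± 0.0781 to 39.9 ± 6.84 RPKM in neuroectoderm and 13.3 ± 2.98 in mesendoderm (SD, n = 3). ROR1 averaged 20.4, 22.4 and 6.47 RPKM, and its fall of 1.52 ± 0.12 in mesendoderm passed. GPC4, a glypican that binds WNT, fell from 70.2 to 3.90 RPKM in neuroectoderm and to 45.0 in mesendoderm.

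A further list holds genes that set Frizzled levels at the surface. Among 11 tested, 5 were higher and 2 lower in neuroectoderm, and 5 higher and 3 lower in mesendoderm, against hESC. Between the lineages 6 were higher and 4 lower in neuroectoderm, and the medians were 0.53, 0.23 and 0.46. The 4, 3 and 1 others did not pass, beside 44.2%, 35.1% and 48.1% of all genes called. RNF43, which removes Frizzleds, averaged 0.277, 0.390 and 3.56 RPKM in hESC, neuroectoderm and mesendoderm, and it rose in mesendoderm by 1.83 ± 0.10 and did not pass in neuroectoderm (0.12 ± 0.10, limma adjusted p = 0.381). LGR5, an R-spondin receptor, averaged 0.103, 0.327 and 3.52 RPKM in the same order. RSPO2 averaged 0.280, 5.46 and 0.0733 RPKM and RSPO3 0.0600, 3.09 and 2.68. SHISA2, which holds Frizzleds inside the cell, averaged 7.77, 28.8 and 1.28 RPKM, a rise of 1.76 ± 0.16 in neuroectoderm and a fall of 1.95 ± 0.16 in mesendoderm. APCDD1, an inhibitor at the membrane that also stands in the antagonist and target lists, averaged 3.34, 59.2 and 8.38 RPKM.

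Ligand genes were mostly higher in the differentiated groups, and which ones differed between the lineages. Of 17 tested genes for WNT ligands and their secretion, 12 were higher and 0 lower in neuroectoderm and 10 higher and 0 lower in mesendoderm than in hESC, and 8 were higher and 7 lower in neuroectoderm than in mesendoderm (medians 1.37, 1.04 and 0.07). In these comparisons 44.2%, 35.1% and 48.1% of all genes were called, and 5, 7 and 2 of the 17 did not pass. The filter used the mean of all 9 libraries, and 17 of 23 matched genes passed it. The tested WNT genes averaged 0.0267 (WNT3A) to 0.767 (WNT4) RPKM in hESC and entered mostly through a differentiated group. The absence of lower calls was thus largely set by the filter. NOTUM, among the 17 and higher in both lineages, is neither a ligand nor a secretion gene and also stands in the target list. WLS, which carries WNT proteins to the surface, was in the list and averaged 1.14, 198.5 and 184.9 RPKM in hESC, neuroectoderm and mesendoderm. WNT1 averaged 0.0933 RPKM in hESC, 17.9 in neuroectoderm and 0.0333 in mesendoderm. WNT7B averaged 0.120, 9.61 and 0.0800 RPKM, and WNT2B 0.280, 11.9 and 0.290. In mesendoderm the highest of the named ligands was WNT5B, at 39.0 RPKM against 0.5 in hESC and 14.0 in neuroectoderm. WNT8A (0.153, 0.480 and 19.4 RPKM), WNT3 (0.3, 1.54 and 17.0) and WNT6 (0.0533, 0.0700 and 10.4) were highest in mesendoderm. WNT5A, added after its values were seen, averaged 0.633, 1.11 and 20.4 RPKM, and passed in mesendoderm against hESC (3.52 ± 0.40, limma adjusted p = 1.69e-04) but not in neuroectoderm (0.36 ± 0.40, adjusted p = 0.505).

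The secreted antagonists moved in both directions, with 4 of 9 tested genes higher and 4 lower in neuroectoderm, 3 higher and 3 lower in mesendoderm, and 4 higher and 3 lower between the lineages (medians -0.52, -0.077 and 0.10), beside 44.2%, 35.1% and 48.1% of all genes called. SFRP1, which binds WNT through a Frizzled-like domain, averaged 195.3, 76.7 and 11.6 RPKM in hESC, neuroectoderm and mesendoderm. FRZB, of the same kind, averaged 1.14, 9.32 and 0.180 RPKM. CER1, an antagonist of Nodal, BMP and WNT, averaged 0.487, 0.0267 and 59.2 RPKM.

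Inside the cell, 22 genes of Dishevelled and the β-catenin destruction complex were tested. Of these, 5 were higher and 3 lower in neuroectoderm and 4 higher and 5 lower in mesendoderm against hESC, and 4 were higher and 3 lower between the lineages (medians 0.09, -0.04 and 0.05). The 8, 9 and 7 of 22 called stand beside 44.2%, 35.1% and 48.1% of all genes called, and are a share below, near and below that background. DVL1 averaged 26.1, 21.2 and 21.7 RPKM, DVL2 9.19, 12.7 and 11.8, and DVL3 11.4, 13.7 and 18.5. Of the Dishevelled genes DVL3 passed in mesendoderm against hESC (0.66 ± 0.18, limma adjusted p = 0.0223). That call was lost without hESC replicate 1 or 2 or any mesendoderm library (adjusted p = 0.0501 to 0.0761). In the main fit DVL1 and DVL2 did not pass. After GC correction with all 9 libraries, DVL2 and DVL3 were higher in neuroectoderm than in hESC (0.49 and 0.27, adjusted p = 0.00167 and 0.0223). DVL2 was then higher in mesendoderm than in hESC (0.33, adjusted p = 0.0157). DVL3 was then lower in neuroectoderm than in mesendoderm (-0.36, adjusted p = 0.0057). Without the 3 libraries that stood apart, DVL2 and DVL3 were higher in neuroectoderm than in hESC (0.52 and 0.35, adjusted p = 0.00258 and 0.0138), DVL2 was higher there than in mesendoderm (0.31, adjusted p = 0.0207), and DVL1 was lower in mesendoderm than in hESC (-0.42, adjusted p = 0.00602). FRAT2, an inhibitor of the kinase GSK3, averaged 17.5 RPKM in hESC, 2.57 in neuroectoderm and 4.33 in mesendoderm. DACT1, a Dishevelled-binding protein, averaged 1.71, 4.27 and 19.5 RPKM.

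In the planar polarity branch, 9 of 20 tested genes were higher and 3 lower in neuroectoderm, 5 higher and 4 lower in mesendoderm, and 11 higher and 4 lower between the lineages (medians 0.24, 0.017 and 0.48), where 44.2%, 35.1% and 48.1% of all genes were called. PRICKLE1, a core polarity protein, averaged 23.0 RPKM in hESC, 1.67 in neuroectoderm and 2.34 in mesendoderm. VANGL1, its partner at the membrane, averaged 2.68, 1.47 and 8.24 RPKM. CELSR1, a polarity cadherin, averaged 3.29, 8.48 and 2.47 RPKM and was higher in neuroectoderm than in mesendoderm by 1.43 ± 0.16.

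Of genes listed as targets of the β-catenin branch, 15 of 15 tested were higher in mesendoderm than in hESC. In neuroectoderm 8 were higher and 1 lower than in hESC (medians 1.83 and 0.67 in mesendoderm and neuroectoderm). Between the lineages 5 were higher and 8 lower in neuroectoderm (median -1.35). Of all genes 35.1% were called in mesendoderm, 44.2% in neuroectoderm and 48.1% between the lineages. The filter left out none of the 15 matched targets. However, TBX3, CDX1, LGR5, RNF43 and NOTUM passed it only through mesendoderm, such as LGR5 (0.103, 0.327 and 3.52 RPKM in hESC, neuroectoderm and mesendoderm). For these genes a higher level in mesendoderm was thus largely set by the filter. AXIN2, a feedback inhibitor that also stands in the destruction complex list, averaged 7.82, 73.5 and 12.7 RPKM in hESC, neuroectoderm and mesendoderm. Its rise in mesendoderm passed narrowly (0.63 ± 0.21, limma adjusted p = 0.0484), as did that of ZNRF3 (0.25 ± 0.09, adjusted p = 0.0477). LEF1, a factor that binds with β-catenin, averaged 0.273, 16.8 and 9.27 RPKM. SP5 averaged 0.0533, 13.9 and 39.5 RPKM and is also a marker in the primitive streak list. BAMBI, a pseudoreceptor that dampens TGF-β signals, averaged 4.69, 0.673 and 129.4 RPKM. The mesendoderm group received BMP4, and which signal set the levels of these genes was not tested.

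The genes whose pattern over the 9 libraries was most like that of FZD7, by the root mean square difference of centred log2(RPKM + 1) values among 14472 other genes, included PRKCB (0.128) and CELF5 (0.153). PRKCB, a protein kinase C, averaged 3.61, 2.91 and 0.183 RPKM in hESC, neuroectoderm and mesendoderm. CELF5, an RNA-binding protein, averaged 4.59, 4.02 and 0.523 RPKM. The same measure for FZD10, added after its values were seen, gave BMP2 (0.197), CNTFR (0.226) and FLRT3 (0.306). BMP2 averaged 2.11, 48.3 and 10.0 RPKM. For FZD5, likewise chosen after its values were seen, the nearest was VASH2 (0.191) with 11.4, 1.70 and 5.87 RPKM.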

How the data were processed

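The authors deposited 1 table of RPKM values, rounded to 2 decimals, for 38759 RefSeq transcripts in 9 libraries. Per the labels' protocols, RNA including small RNA was DNase-treated, and Ion Torrent libraries were made after removal of ribosomal RNA. Per the submitters' processing notes, the tools were TopHat, TopHat2 2.0.13 and Bowtie2 and the build was hg19. How reads were counted, whether by strand, and which reads form the denominator is not given in the sources used here. Depth was estimated from the steps between low values of small RNA genes, of which 92.9% to 97.2% of 156 to 232 per library were whole within 0.1 read, and covers counting error only.

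Samples were grouped by their titles. For each of 21417 symbols the transcript with the highest mean was kept, and those averaging 0.5 RPKM or more (14473) entered the test as log2(RPKM + 1) in a limma 3.58.1 fit (R 4.3.3) of all 9 libraries with a mean-variance trend and group as the term. Differences are ± SE, and adjusted p-values are Benjamini-Hochberg over all genes tested. The fit was also run on simulated data with independent noise for each gene. These lacked the deviations with GC content that genes of a library share, so the run cannot speak to them. The receptors, the 17 gene lists and the tests were chosen with earlier results of these data known, so list counts are descriptions. Of 251 list entries 248 were matched. Named genes were all receptors, up to 4 members per pathway list and comparison with the largest change past the threshold (some of these are left out for length), LRP5, LRP6, the Dishevelled genes and the 3 genes nearest in pattern to the leading receptor of each group, of which 1 is not reported here. Promoters and gene models came from RefSeq and GENCODE tables of GRCh38, whose coordinates were not joined to hg19, and transcript lengths may differ from those the authors used.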

Additional observations from a re-analysis of the deposited data

Results flagged for a closer look

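The differences from hESC ran in opposite directions in the 2 lineages for 8 of the genes named. Each was called one way in neuroectoderm and the other way in mesendoderm, with the difference between the lineages itself tested by limma. FZD4 fell by 0.46 in neuroectoderm and rose by 0.98 in mesendoderm, and the lineages differed by -1.44 (adjusted p = 3.92e-05). BAMBI fell by 1.77 and rose by 4.49 (difference -6.25, adjusted p = 2.46e-08). CER1 fell by 0.52 and rose by 5.33 (difference -5.85, adjusted p = 3.38e-08). VANGL1 fell by 0.57 and rose by 1.33 (difference -1.90, adjusted p = 6.72e-07), and PRICKLE3, another planar polarity gene, fell by 0.51 and rose by 0.54 (difference -1.05, adjusted p = 5.46e-05). The opposite order held for FRZB, which rose by 2.26 in neuroectoderm and fell by 0.86 in mesendoderm (difference 3.12, adjusted p = 9.29e-08). RSPO2 rose by 2.33 and fell by 0.25 (difference 2.59, adjusted p = 4.94e-08), and SHISA2 rose by 1.76 and fell by 1.95 (difference 3.71, adjusted p = 2.40e-07). The falls of RSPO2 (0.280 RPKM in hESC, 0.0733 in mesendoderm) and CER1 (0.487 in hESC, 0.0267 in neuroectoderm) lie at low levels. Both differences are taken against the same hESC libraries. Groups of 3 are too small for a test of single outlying libraries.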

How the results depend on the processing

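Over 23 alternative settings the number of receptors called stayed within 1.5 times of 7, 6 and 8 in the 3 comparisons. Some differences that did not pass changed sign. FZD8 in neuroectoderm against hESC became 0.0342 after GC correction (0.0342 with the replicate block too). It became 0.0624 when the 3 libraries that stood apart were dropped, and ranged from -0.28 to 0.10 when single libraries were left out. FZD8 in neuroectoderm against mesendoderm ranged from -0.0919 to 0.29 (-0.018 and -0.067 without neuroectoderm replicate 2 and mesendoderm replicate 2). FZD2 in mesendoderm against hESC became 0.0989 after GC correction (0.0989 with the replicate block) and 0.16 when the 3 libraries were dropped, and ranged from -0.17 to 0.19 (0.0442 without hESC replicate 3). FZD9 there became 0.0053 after GC correction (0.0053 with the replicate block). DVL1 ranged from -0.64 to 0.10 in neuroectoderm against hESC. Against mesendoderm DVL1 became 0.0465 with small RNA left out and 0.26 when the 3 libraries were dropped (adjusted p = 0.0284), and ranged from -0.42 to 0.32. DVL2 in neuroectoderm against mesendoderm ranged from -0.13 to 0.31 (-0.033 without neuroectoderm replicate 3), and was 0.31 when the 3 libraries were dropped (adjusted p = 0.0207). The cause was not tested. The family sum became 111.1, 153.8 and 74.35 RPKM in hESC, neuroectoderm and mesendoderm when transcripts were added up, which counts shared reads more than once, and 52.25 in mesendoderm with small RNA left out.

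That rescaling moved the median of all genes between the lineages to 0.17, with 4208 genes higher and 2620 lower in neuroectoderm (3478 and 3487 as reported). FZD9 was not tested at a mean of 1 RPKM.

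The labels tie the shared replicate numbers to no batch. Deviations of same-numbered libraries had correlations across genes of -0.738 to 0.401. These deviations also followed GC content, with 0.787 between hESC replicate 2 and neuroectoderm replicate 1, and those of a group sum to zero. The correlations therefore cannot decide whether the numbers pair the samples. With the replicate block 7, 6 and 7 receptors were called, and FZD9 between the lineages was lost (adjusted p = 0.0592).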
